A study of Mus musculus with 8 samples.

Results

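The regions described here are the intervals called for acetylated lysine 27 of histone H3 (H3K27ac) that share no base pair with any interval called for dimethylated lysine 4 of the same histone (H3K4me2) in Beta-TC6 cells. They were 10571 of 29735 H3K27ac intervals, a share of 35.55% (Wilson 95% interval 35.01 to 36.1%), and the other 19164 overlapped H3K4me2 by at least 1 bp. Beta-TC6 cells are insulin-secreting tumour cells of the mouse, so the data come from 1 transformed line and not from islets. The cells were untreated, were harvested at confluence, and were fixed with 2 mM of the protein crosslinker DSG and then with 1% formaldehyde. Chromatin immunoprecipitation with sequencing (ChIP-seq) gave 1 library for each of 6 targets, the clock factors BMAL1 and CLOCK, the beta-cell factor PDX1, H3K4me2, H3K27ac and the histone variant H2A.Z, besides 2 inputs. With 1 library per target, no difference can be set against replicate error. The 95% intervals given here cover counting error only, and neighbouring intervals are not independent.

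H3K27ac is deposited by acetyltransferases such as p300 and CBP and marks promoters and enhancers in use. H3K4me2 covers active and poised promoters and enhancers more widely, so the pair is often required together when enhancers are listed. PDX1 binds TAAT-containing sites and holds up the beta-cell programme, whereas BMAL1 and CLOCK bind as a heterodimer to E-boxes, of which CACGTG is the canonical form. H2A.Z replaces H2A mainly in the nucleosomes that flank start sites.

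Libraries held between 12892080 (BMAL1) and 26678241 (H3K4me2) tags, and the H3K27ac library held 13430083, of which 37.20% lay in its intervals. An H3K27ac interval needed at least 11 tags and an H3K4me2 interval at least 17 in the window scanned by the peak caller, and both needed 4 times the input. A region without an H3K4me2 interval is therefore one where none was detectable at this depth, not one shown to lack the mark. Of 8 beta-cell markers (Ins1, Ins2, Pdx1, Nkx6-1, Mafa, Neurod1, Slc2a2 and Iapp), all 8 carried H3K27ac that overlapped H3K4me2, and Slc2a2 alone also held intervals without it.

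Most of the intervals without H3K4me2 carried no factor peak, and the few at promoters with a CLOCK or BMAL1 peak show what such a place can look like. The sequences below are the 250 bases before the start site of 4 genes whose promoter lies in an interval without H3K4me2 and holds the centre of a BMAL1 or CLOCK peak. They are RefSeq sequences of GRCm38.p6, which shares coordinates with mm10, written 5′ to 3′ on the strand of the gene with CACGTG in capitals. Klf11 was chosen by its peak scores, and the other 3 were chosen after their values were seen.
Klf11, chr12:24651121-24651370, plus strand: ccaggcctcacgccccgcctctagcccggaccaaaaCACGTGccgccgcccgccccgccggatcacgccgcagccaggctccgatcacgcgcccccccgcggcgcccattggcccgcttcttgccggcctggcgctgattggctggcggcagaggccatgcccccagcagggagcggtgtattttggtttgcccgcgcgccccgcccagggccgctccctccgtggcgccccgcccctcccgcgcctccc
Atp6v0b, chr4:117887330-117887579, minus strand: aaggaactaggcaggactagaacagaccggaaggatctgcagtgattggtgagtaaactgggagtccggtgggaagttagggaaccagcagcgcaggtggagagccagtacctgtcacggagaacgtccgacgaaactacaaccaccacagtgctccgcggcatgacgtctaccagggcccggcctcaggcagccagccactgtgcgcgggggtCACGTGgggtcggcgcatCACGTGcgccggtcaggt
Gpr137, chr19:6941508-6941757, minus strand: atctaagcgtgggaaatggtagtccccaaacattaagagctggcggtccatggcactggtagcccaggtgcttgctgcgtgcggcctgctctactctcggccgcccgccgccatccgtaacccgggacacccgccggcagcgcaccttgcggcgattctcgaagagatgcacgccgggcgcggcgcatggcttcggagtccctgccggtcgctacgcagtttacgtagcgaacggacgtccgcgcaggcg
Atf7, chr15:102625465-102625714, minus strand: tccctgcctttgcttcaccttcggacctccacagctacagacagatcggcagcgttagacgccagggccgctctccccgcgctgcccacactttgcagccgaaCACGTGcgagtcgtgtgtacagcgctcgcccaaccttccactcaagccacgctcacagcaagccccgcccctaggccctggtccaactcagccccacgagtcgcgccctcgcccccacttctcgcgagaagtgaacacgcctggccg
Klf11, a Krüppel-like factor whose human counterpart has been linked to a monogenic diabetes, has 1 CACGTG, whose first base is at position -214 from the start site, and a CLOCK peak centred at -146. Atp6v0b, a subunit of the vacuolar proton pump that acidifies secretory granules, has 2 near the start site and a CLOCK peak centred at -42. The promoter of Atf7, a CREB-family transcription factor, has 1, and that of Gpr137, a lysosomal membrane protein, has none. CACGTG occurred in 6.021% of all 32851 promoter windows of this length (1978), in 8.399% of the 762 windows that overlapped an interval without H3K4me2 and in 8.848% of the 8533 that overlapped one with it. CACGTG is its own reverse complement, so 1 search covers both strands. Among windows that held the centre of a CLOCK peak, the motif was present in 9 of 15 inside intervals without H3K4me2 (60.0%, Wilson 35.75 to 80.18%) and in 77 of 145 inside the others (53.1%, 45.01 to 61.04%). Windows of neighbouring genes can overlap and hold the same peak centre, as at Mapk6, so windows are not all independent. The Wilson intervals do not account for this. At this number of windows the shares could not be told apart, and a match is a description of the letters, not evidence of binding.

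By count, H3K27ac at these 4 promoters lay above the median interval without H3K4me2 (15.6). The median of those centred within 1 kb of a gene end was 61.1, which is close to the value at Atp6v0b. The scale is HOMER's Normalized Tag Count, the tags in an interval scaled to 10000000 per library. Relative to input, Klf11 and Atp6v0b (5.19 times) lay below the median of 5.88 times for all intervals without H3K4me2. Gpr137 (8.51) and Atf7 (7.88) lay above it. The interval at Klf11 (chr12:24651113-24652052) had a Normalized Tag Count of 113.2 and only 4.84 times the input, with a CLOCK peak of score 89 and a BMAL1 peak of score 61. The score is the authors' value for a peak and is used here only within 1 list. At Atp6v0b the count was 66.3 with a CLOCK score of 34, at Gpr137 it was 247.2 with a BMAL1 score of 34 and a CLOCK score of 14, and at Atf7 it was 134.0 with a CLOCK score of 32 and a BMAL1 score of 19. Atf7 was the one of the 4 with an H2A.Z interval, of score 38. The nearest H3K4me2 lay 28125 bp away at Klf11, 1587 bp at Atp6v0b, 7304 bp at Gpr137 and 36151 bp at Atf7. All 4 intervals are thus clear of H3K4me2 by more than 1 kb.

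Intervals without H3K4me2 were narrow and weak in comparison with the rest, a description that involves the marks used to choose them and was not tested. Their median width was 635 bp (quartiles 500 to 1292 bp), against 1470 bp (839 to 2231 bp) for intervals with H3K4me2. The width of 500 bp, from which the peak caller starts, was found in 45.42% of them and in 12.41% of the others. Their median Normalized Tag Count was 15.6 (quartiles 8.94 to 49.9), against 81.9 (29.0 to 195.1). The median interval without H3K4me2 thus rested on 21 tags, for which the exact Poisson interval is 13 to 32.1, and the median interval with it on 110 (90.41 to 132.6). Enrichment over input was lower as well, with a median of 5.88 times against 7.35, and 27.66% lay under 5 times the input, against 16.89%.

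The share without H3K4me2 fell step by step with the Normalized Tag Count. That count is a total over the interval and rose with width. The median width without H3K4me2 was 500 bp under a count of 20 and 3763.5 bp at 400 or more. A wider interval has more room to share a base with H3K4me2, and the part of width in this fall was not tested. Below a Normalized Tag Count of 20, 64.15% of 9381 H3K27ac intervals had no H3K4me2 (Wilson 63.17 to 65.12%). The share was 33.88% between 20 and 50, 24.51% between 50 and 100, 17.79% between 100 and 200 and 14.36% between 200 and 400. At 400 or more it was 8.76% (178 of 2032, 7.607 to 10.07%), and none of these Wilson intervals overlapped a neighbour's. Weak intervals made up the bulk, with 6018 of the 10571 under 20, but 649 stood at 200 or more and 15 at 1000 or more, against 4662 and 292 of the others. Beyond 5 kb in width there were 42, against 674 of the others.

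**Figure D1:**
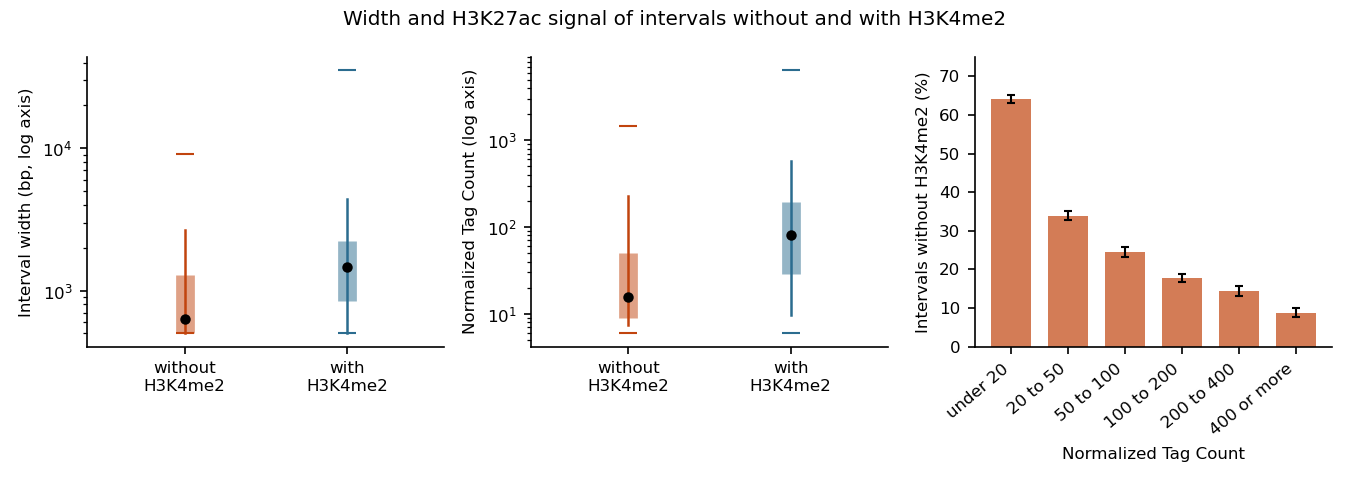
Width in bp and Normalized Tag Count (both on log axes) of H3K27ac intervals without and with H3K4me2, as median (point), quartiles (box), 5th to 95th percentile (line) and the lowest and highest value (ticks), and the share of intervals without H3K4me2 by class of Normalized Tag Count with Wilson 95% intervals. The boxes without H3K4me2 sit lower (medians 635 bp and 15.6 against 1470 bp and 81.9), and the share falls from 64.15% to 8.76%.

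The gap from an interval without H3K4me2 to the nearest H3K4me2 interval had a median of 9846 bp (quartiles 3544.5 to 24492 bp). It was under 1 kb in 866 (8.192%), between 1 and 5 kb in 2563 (24.25%), between 5 and 20 kb in 3903 (36.92%), between 20 and 50 kb in 2116 (20.02%) and at least 50 kb in 1123 (10.62%). Near misses were therefore a minority. The threshold itself falls between very similar intervals. Just inside it stood an interval 161874 bp from Rxylt1 that touches H3K4me2 without sharing a base (Normalized Tag Count 8.94), one near Shtn1 with a gap of 3 bp (11.2) and one near Cep19 with a gap of 4 bp (46.9). Just outside it stood one in Nup35 that shares 1 bp (72.2), one 56063 bp from Rtp4 that shares 2 bp (54.4) and one in Pkib that shares 2 bp (8.94). Strong and weak intervals lay at similar distances: the median gap was 8012 bp (3606 to 18785 bp) at a Normalized Tag Count of 200 or more and 9980 bp (3395 to 25625.75 bp) under 20. With growing gap the share with a PDX1 peak went from 9.931% under 1 kb through 12.91%, 15.17% and 16.26% to 17.54% at 50 kb or more, while the share centred inside a gene went from 64.67% to 43.28%.

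Where these intervals lie differed from the rest most clearly at the ends of genes. Of the intervals without H3K4me2, 853 (8.07%) were centred within 1 kb of an end of a protein-coding gene, against 6000 (31.31%) of the others, and the share over all H3K27ac intervals was 23.0%. The difference was -23.24 percentage points (95% interval -24.07 to -22.4). Gene ends were used because the gene table gives no strand. With the start sites of a promoter table in their place, the shares were 6.74% of 10282 and 32.74% of 18520. The deficit held in each class of Normalized Tag Count, from -8.224 points under 20 to -24.27 points between 200 and 400, and the interval of the difference lay below 0 in each. Ends of long noncoding RNA genes showed the same order, with 3.122% against 8.119%, while pseudogene ends did not, with 0.6149% against 0.4748% and overlapping Wilson intervals.

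Protein-coding gene spans held the centres of 60.68% of the intervals without H3K4me2 and of 64.26% of the others, against 63.0% over all H3K27ac intervals. That difference was small, at -3.586 points (-4.739 to -2.435), and its sign depended on the class, with 2.169 points (0.1013 to 4.244) under a Normalized Tag Count of 20 and -8.811 points (-16.44 to -1.521) at 400 or more. Split into exclusive places, 853 intervals lay at gene ends, 5818 (55.04%) further inside genes and 3900 (36.89%) outside genes. Those at gene ends had the highest median Normalized Tag Count, 61.1 against 14.1 inside genes and 14.9 outside. They were also wider, with a median of 897 bp against 631 bp in both of the other places. Their median enrichment was 5.85 times the input, against 5.78 inside genes and 5.95 outside, so by this measure they were not stronger. They also had more input, with a median of 15.08 input tags per kb against 5.8 in both of the other places. Under 5 times the input lay 31.3% of them, against 27.47% inside genes and 27.15% outside. Among intervals with H3K4me2 at gene ends it was 19.17%. The part of this input signal in the calls was not tested. Exons, introns and UTRs were not determined. By chromosome, the share without H3K4me2 ran from 29.23% of 852 intervals on X (Wilson 26.27 to 32.37%) and 30.55% on chromosome 9 to 40.62% of 2095 on chromosome 4 (38.54 to 42.74%).

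PDX1 peaks were found in 1550 of the intervals without H3K4me2 (14.66%, Wilson 14 to 15.35%) and in 28.18% of the others, beside 23.4% of all H3K27ac intervals. Because a wider interval has more room for a peak, shares were compared within 10 classes of width by a Mantel-Haenszel difference, which was -5.594 points (-6.613 to -4.576). Without width classes it was -13.52 points (-14.44 to -12.59). The median PDX1 score was 25 for the 1582 peaks in intervals without H3K4me2, 27 for the 5782 in the others and 18 for the 27519 in no H3K27ac interval. The highest reached 226 and 395 in the same order. Of all 34883 PDX1 peaks, 4.535% lay in H3K27ac without H3K4me2 and 78.89% in no H3K27ac interval.

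The PDX1 difference turned with the strength of the acetylation. In intervals with a Normalized Tag Count under 20, 7.378% of those without H3K4me2 and 21.38% of those with it held a PDX1 peak. The shares were 24.1% and 27.77% between 50 and 100, still lower without H3K4me2 (-3.66 points, -6.482 to -0.7154). They were 29.82% and 26.67% between 100 and 200, where the difference of 3.149 points had an interval from -0.1741 to 6.621. At 400 or more the order was the other way, with 52.81% (94 of 178) against 43.64% (809 of 1854), a difference of 9.174 points (1.515 to 16.71). Over all counts, PDX1 peaks were found at gene ends in 5.862% and 5.983%, and intervals with H3K4me2 at a count of 400 or more lay at gene ends more often (28.75% against 11.8%). At gene ends the share was higher without H3K4me2 between 50 and 100, with 9.551% against 4.026% (5.525 points, 1.809 to 10.82), and at 400 or more, with 28.57% (6 of 21) against 11.63% (16.94 points, 1.88 to 38.46). The other 4 gene-end classes had intervals that included 0. Among intervals more than 1 kb from gene ends, the difference was -16.23 points under 20, -17.42 between 20 and 50, -13.89 between 50 and 100, -6.732 between 100 and 200, -3.552 (-8.974 to 2.008) between 200 and 400 and -0.4971 (-8.75 to 7.496) at 400 or more. There the shares at 400 or more were 56.05% of 157 and 56.55% of 1321. Away from gene ends, no PDX1 difference was therefore detectable in the strongest class, whose interval leaves room for one of several points in either direction.

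**Figure D2:**
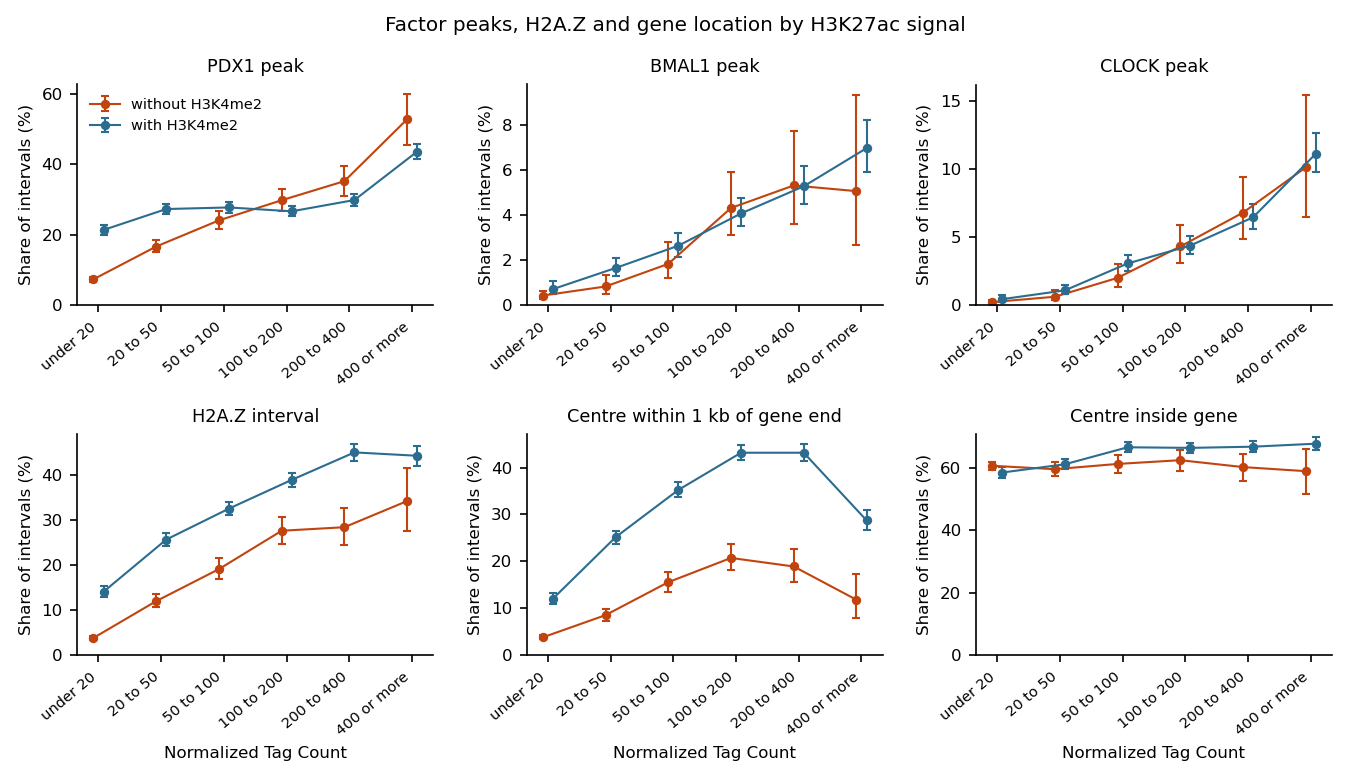
Share of H3K27ac intervals (%) without and with H3K4me2 that hold a PDX1, BMAL1 or CLOCK peak or an H2A.Z interval, or are centred within 1 kb of a gene end or inside a gene, by class of Normalized Tag Count; bars are Wilson 95% intervals. The PDX1 lines cross (7.378% against 21.38% under 20, 52.81% against 43.64% at 400 or more), whereas those of H2A.Z and gene ends stay apart.

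H2A.Z gave the widest gap of the 4 targets. It was called in 1106 intervals without H3K4me2 (10.46%, Wilson 9.893 to 11.06%) and in 32.25% of the others, beside 24.5% of all, and the difference over width classes was -15.59 points (-16.59 to -14.6). Unlike PDX1, it kept its sign in every class of Normalized Tag Count, between -10.07 points (-17.02 to -2.488) at 400 or more and -16.64 points (-20.94 to -12.02) between 200 and 400. It was present at gene ends, with 32.47% against 50.38%, inside genes, with 5.603% against 22.03%, and outside genes, with 12.9% against 26.76%. Within gene ends the difference was widest under a count of 20, with 5.263% of 228 against 34.9% of 404, and its intervals included 0 between 100 and 200 (-2.661 points, -10.4 to 5.095) and at 400 or more (-12.04 points, -31.75 to 8.408). The H2A.Z intervals of the highest score in these regions lay near Orai1, the pore of store-operated calcium channels, and in Wdr1, an actin-disassembly factor (score 49 at both), and in the kinase gene Map3k7 (46), at Stradb and Trak2 (44) and in Guf1 (44). None of these 5 held a BMAL1, CLOCK or PDX1 peak. Their H3K27ac stood at 4.12, 4.03, 10.57, 6.08 and 5.16 times the input in the same order, where 4 times was required. They had 19.79 to 27.19 input tags per kb, against a median of 5.8 for all intervals without H3K4me2. All but the one in Wdr1 were centred within 1 kb of a gene end. Intervals without H3K4me2 at gene ends had a median of 15.08 input tags per kb (quartiles 6.032 to 20.85).

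**Figure D3:**
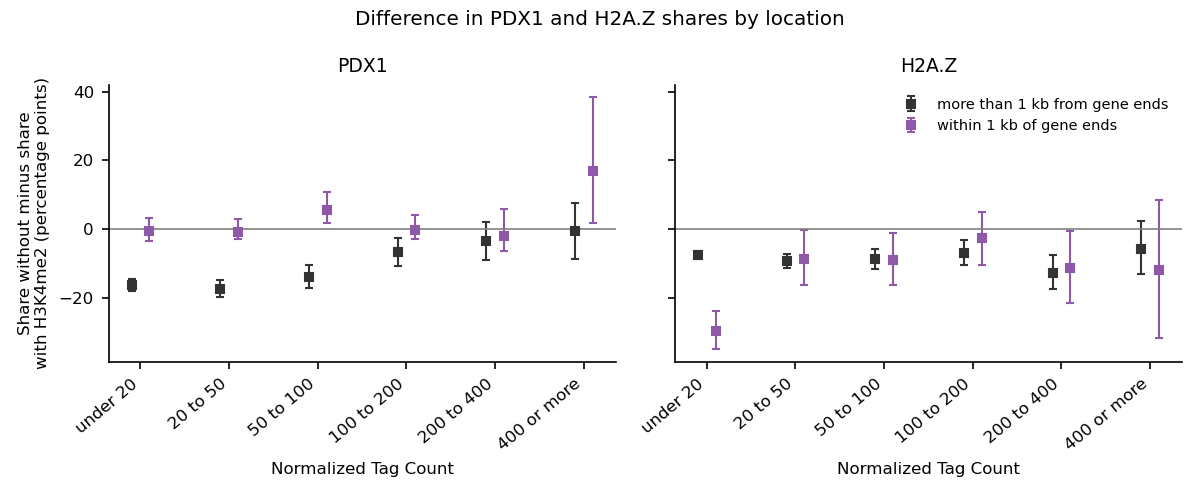
Difference in the share of intervals with a PDX1 peak or an H2A.Z interval (without minus with H3K4me2, percentage points; bars are 95% Newcombe intervals) by class of Normalized Tag Count, more than 1 kb from gene ends and within 1 kb of them. Away from gene ends the PDX1 difference goes from -16.23 under 20 to -0.4971 at 400 or more, and that of H2A.Z lies below 0 in every class, with an interval that reaches past 0 at 400 or more.

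The clock factors were rare in these regions. BMAL1 was called in 133 (1.258%, Wilson 1.063 to 1.489%) and in 3.199% of the others, beside 2.51% of all, and the difference over width classes was -0.7513 points (-1.11 to -0.3926). CLOCK was called in 135 (1.277%, 1.08 to 1.51%) and in 3.757% of the others, beside 2.88% of all, with a difference of -0.858 points (-1.228 to -0.488). In 10 classes of Normalized Tag Count in place of width, the difference was -0.4388 points (-0.8016 to -0.07609) for BMAL1 and -0.3575 points (-0.7297 to 0.0147) for CLOCK. In the 6 broader classes both shares were lower without H3K4me2 in each class below 100, but 11 of the 12 intervals included 0, the exception being BMAL1 between 20 and 50 (-0.8195 points, -1.379 to -0.1906). At 400 or more, CLOCK was present in 10.11% of the intervals without H3K4me2 (18 of 178) and in 11.11% with it. Scores of 13 or 14, at the lower limit of the lists, made up 46.62% of the 133 BMAL1 peaks and 34.07% of the 135 CLOCK peaks. They made up 40.74% and 32.28% in H3K27ac with H3K4me2 and 73.98% and 62.11% in no H3K27ac interval. The share of low scores was thus closer to that in the other H3K27ac intervals. The highest score was lower than in those, among fewer peaks. It was 120 (of 133) against 408 (of 621) for BMAL1 and 107 (of 135) against 433 (of 731) for CLOCK. Among the 1378 CLOCK peaks of the whole list, 9.797% lay in H3K27ac without H3K4me2 and 53.05% in H3K27ac with it.

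The call of the last comparisons depended on how H3K4me2 was defined. With only H3K4me2 intervals at 8 times the input or more, 26823 H3K27ac intervals had none, and the differences of BMAL1 (0.9201 points, 0.3776 to 1.463) and CLOCK (0.9189, 0.3225 to 1.515) turned. Those of H2A.Z (1.052, -0.5785 to 2.683), gene ends (0.8804, -0.7454 to 2.439) and gene spans (0.5392, -1.296 to 2.404) were no longer detectable, with intervals that included 0, while that of PDX1 was -4.92 points. The cause was not tested.

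Most intervals without H3K4me2, 8869 of 10571 (83.9%), held none of the 3 factors, against 67.93% of the others. PDX1 alone was present in 1464 (13.85%, against 26.12% of the others), BMAL1 alone in 72 (0.6811%, against 1.398%) and CLOCK alone in 57 (0.5392%, against 1.722%). BMAL1 with CLOCK was found in 23 (0.2176%, against 0.7671%) and PDX1 with BMAL1 in 31 (0.2933%, against 0.7984%). PDX1 with CLOCK was found in 48 (0.4541%, against 1.033%) and all 3 in 7. Any 2 or more of the factors were present in 1.031%, against 2.833% of the others, and all 3 in 0.06622%, against 0.2348%. At least 2 PDX1 peaks were found in 32 (0.3027%, against 1.884%), and none held 3. These shares are not adjusted for width. The interval that stood out among the 7 with all 3 factors lies outside genes at chr5:111974132-111976539, with Cryba4, 271157 bp away, as the nearest protein-coding gene. Its Normalized Tag Count was 493.7 at 19.35 times the input, and it held a PDX1 peak of score 164, a CLOCK peak of 107 and a BMAL1 peak of 53. The nearest H3K4me2 was 19853 bp away. Its CLOCK peak was the one of highest score in any interval without H3K4me2, and its PDX1 peak was the fifth.

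Further intervals among those with the highest-scoring BMAL1 or CLOCK peaks held both factors. In an interval 18580 bp from the end of Tsc22d3, which encodes the glucocorticoid-induced leucine zipper protein, the scores were 59 for BMAL1 and 72 for CLOCK at a Normalized Tag Count of 50.6. In one 23333 bp from Rps6ka1, a ribosomal S6 kinase, they were 58 and 63 at a count of 201.0. In Mknk1, a kinase that phosphorylates the cap-binding factor eIF4E, CLOCK scored 65, BMAL1 25 and PDX1 17. Each of these is a place where a clock factor was called without detectable H3K4me2.

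A list of 10 intervals with at least 2 of the 3 factors, taken by Normalized Tag Count, included Trp53inp2, a regulator of autophagy (1001.5, with PDX1 25 and CLOCK 15), and Slc23a2, a vitamin C transporter (993.3, with BMAL1 and CLOCK both at 16). The interval at Trp53inp2 was a near miss, 851 bp from H3K4me2, and that in Slc23a2 lay 4810 bp from it. In Epb41l3, a membrane-skeleton linker, a PDX1 peak of 156 stood beside a CLOCK peak of 16 at a count of 833.9. The P/Q-type calcium channel gene Cacna1a had 605.4 with PDX1 30 and CLOCK 13. Jade1, Grk3, an interval 203331 bp from Lacc1, Spock1, Hirip3 and the chromosome 5 interval 271157 bp from Cryba4 completed the list, with counts from 796.7 down to 493.7. Apart from the chromosome 5 interval, the CLOCK and BMAL1 scores here lay between 13 and 24 and so close to the lower limit of their lists.

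Over all intervals without H3K4me2 the median gap was 9846 bp and the upper quartile 24492 bp, so gaps above 10 kb were common. Among PDX1 peaks in intervals without H3K4me2, the 4 of highest score lay in intervals more than 10 kb from H3K4me2. They were found outside genes at chr3:43460782-43463243, 1658705 bp from the nearest protein-coding gene end (score 226, gap 43542 bp), in Inpp4b, a phosphoinositide phosphatase gene, at chr8:81710368-81712061 (196, 56475 bp), outside genes at chr13:31185348-31188620, 212888 bp from the nearest such end, that of Exoc2 (192, 36357 bp), and in Gm38510 (190, 16057 bp). Their Normalized Tag Counts were 157.1, 75.9, 291.9 and 222.6 in the same order. All 4 lay above the upper quartile of 49.9 for intervals without H3K4me2.

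The strongest acetylation without H3K4me2 stayed below that with it, where the highest Normalized Tag Count was 6411.7. The highest value without H3K4me2 was 1473.6 for an interval next to Rubcnl, an autophagy regulator, at chr14:75052945-75056616, which rested on 1979 tags (exact Poisson interval 1893 to 2068), stood at 34.65 times the input and lay 7144 bp from H3K4me2. It held no factor peak and no H2A.Z. The second lay inside Ubr4, which encodes a ubiquitin ligase, at chr4:139427455-139435204 (1387.9), 39242 bp from H3K4me2, and held a PDX1 peak of score 42. Its centre was 752 bp from the end of the tRNA gene n-TVaac1. Zc3h3 followed with 1379.7 and a PDX1 score of 101, then Rgs3, a regulator of G-protein signalling, with 1378.2, Fam207a with 1338.0 and the tyrosine phosphatase gene Ptpn3 with 1286.7. Adra2a, the alpha-2A adrenergic receptor through which adrenaline lowers insulin release, had 1285.9 at chr19:54044430-54049687 with 2 PDX1 peaks, the better at 38, and a gap of 3586 bp. Near the palmitoyltransferase gene Zdhhc14 the count was 1264.3 with 2 PDX1 peaks (the better at 67) and 2 H2A.Z intervals, in Ppp2r1b it was 1258.4, and in Wars, a tRNA synthetase gene, it was 1143.7. Of these 10 intervals 8 held a PDX1 peak and none held BMAL1 or CLOCK, beside 52.81%, 5.056% and 10.11% of all 178 intervals without H3K4me2 at 400 or more, so a count of 0 among 10 is no result for the clock factors.

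The widest intervals overlapped this set. The interval in Rgs3 (chr4:62605707-62614852) was the widest at 9145 bp, followed by one 46518 bp from Nefl, a neurofilament gene, at 8454 bp, Ppp2r1b at 8450 bp and Ubr4 at 7749 bp. Dnah9, an axonemal dynein gene, had 7585 bp, Grk3 7245 bp, Kif12 7209 bp, Pkp4 7103 bp and Plekha6 7018 bp. The tenth, of 6332 bp, lay in Abcc8, which encodes the sulfonylurea receptor of the beta-cell potassium channel, at chr7:46143840-46150172. Its Normalized Tag Count was 787.0, its PDX1 peak scored 69, and its gap to H3K4me2 was 8347 bp. A second interval of Abcc8, at chr7:46140490-46141938, had a count of only 43.2 and was overlapped at its edge by the BMAL1 peak of highest score among intervals without H3K4me2 (120, at chr7:46141828-46142158), whose centre lies past the end of the interval. It had no CLOCK or PDX1 peak. One gene for insulin release thus carried a strong interval of this kind with a PDX1 peak and a weak one at the edge of a BMAL1 peak.

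At least 1 interval without H3K4me2 lay within 1 kb of the span of 4000 of 21887 protein-coding genes (18.3%), and 1146 genes (5.24%) had such intervals and no other H3K27ac. Long genes held the most. Sorbs2, a cytoskeletal adaptor gene, had 21 in its span beside 12 with H3K4me2, Snd1 20 beside 10, Rere 19 beside 23, Agap1 16 beside 16 and Ptprn2 16 beside 6. Camta1, Gse1, Kcnh1 and Nav2 had 15 each, and Cacna1c had 14 beside 11. These 10 genes span 320.1 to 802.2 kb, against a median of 17.2 kb for all genes, so length must be borne in mind for every count by gene.

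Of 40 genes for beta-cell hormones, granules and secretion, 22 (55.0%) had an interval without H3K4me2, against 18.3% of all genes, and 38 had any H3K27ac, against 49.59% of all. The median length of the listed genes was 40.6 kb, and the part of length in these shares was not tested. Abcc8 led with 787.0, followed by the prohormone processing gene Cpe with 370.8 and 11 such intervals, the granule gene Scg3 with 303.8, the calcium channel gene Cacna1c with 293.4 and the granule membrane gene Ptprn2 with 291.9. In Cacna1c the leading interval lay 122620 bp from H3K4me2 and held a PDX1 peak of score 42. Ucn3, a peptide of mature beta cells, was the one gene of the list with such an interval and no other H3K27ac (35.7). The secretion genes thus almost always carried acetylation with H3K4me2, and the intervals without it came in addition.

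Islet transcription factor genes had such an interval in 10 of 26 (38.46%, against 18.3% of all genes), and each of the 10 also had H3K27ac with H3K4me2. Any H3K27ac was found in 21 of the 26, against 49.59% of all genes, and the median length of this list was 15.45 kb. Glis3, a zinc-finger factor of beta-cell development, had 198.1 with a PDX1 score of 30. Mlxipl, the glucose-responsive factor ChREBP, had 100.5, Myt1 57.3, Rfx6 27.6 and Pax6 13.4. Of 25 core clock genes, 8 had one (32.0%) and 18 had any H3K27ac (72.0%). The median length of the clock genes was 33.6 kb, and the part of length was not tested. Per2, a repressor of BMAL1 and CLOCK, had 334.3 in an interval 13539 bp from H3K4me2. Its centre lay outside the gene, 1869 bp from the end of Per2. Centred inside their genes, Clock had 128.1 with a PDX1 score of 16, Rora 61.8, Cry2 41.0, Csnk1d 20.1 and Per3, which had no other H3K27ac, 13.4.

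Among 34 genes at diabetes loci, 12 had such an interval (35.29%, against 18.3% of all genes) and 23 had any H3K27ac (67.65%, against 49.59%). Prox1 led with 184.7, 267 bp from H3K4me2, followed by Dgkb with 85.6, Prc1 with 56.6, C2cd4b with 55.8, Kcnq1 with 51.4 and Ptprd with 29.0. Kcnq1, a potassium channel gene, was 1 of 2 in the list without other H3K27ac, the other being Igf2bp2. These were 5.882% of the list, near the 5.24% of all genes. The median length of this list was 76.65 kb. Ribosomal protein genes, short at a median of 3.2 kb, had H3K27ac in 72 of 83 (86.75%) and intervals without H3K4me2 in 11 (13.25%, against 18.3% of all genes). Of these, 6 had no other, which is 7.229% of the list, against 5.24% of all genes. Rps6 led with 231.6 and Rpl36 with 222.6, and Rps10, Rpl23, Rps24 and Rpl34 lay between 113.9 and 81.2.

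Few genes on the lists for other cell types had such an interval, beside 18.3% of all genes, and the lists are short. Of 20 acinar, duct and hepatic genes, none had an interval without H3K4me2 and 1 had any H3K27ac. Among 14 genes of other islet hormones and alpha cells, 1 had one (Peg3, 13.4) and 5 had any H3K27ac. Of 16 fibroblast, endothelial and immune genes 2 had one (12.5%) and 3 had any H3K27ac, the 2 being Pecam1 with 209.2 and Col1a2 with 8.94.

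**Figure D4:**
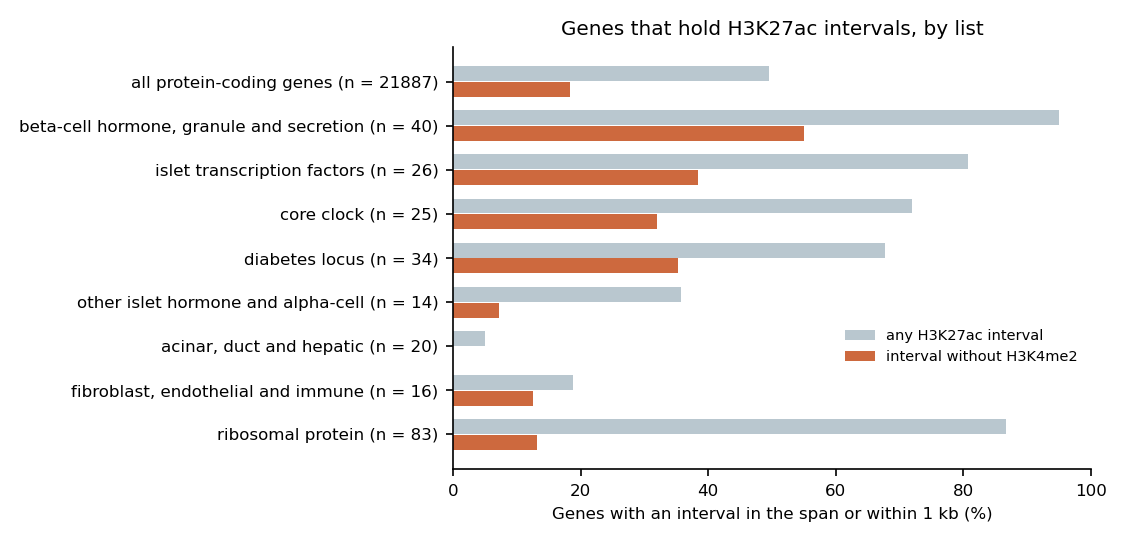
Share of genes (%) in each list, and of all 21887 protein-coding genes, with any H3K27ac interval and with an interval without H3K4me2 in the gene span or within 1 kb of it; the number of genes is given beside each list. The beta-cell secretion list reaches 55.0% for intervals without H3K4me2, against 18.28% of all genes, and ribosomal protein genes 13.25%.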

How the data were processed

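ChIP-seq was carried out on Beta-TC6 cells, with 1 library for each of 6 targets and 2 inputs. The submitters' processing notes name Bowtie 1.1.1, HOMER without a version and the build mm10. Intervals were called separately in each library by HOMER, per the file headers, in its factor style for BMAL1, CLOCK and PDX1 and its histone style for H3K4me2, H3K27ac and H2A.Z. H3K27ac, H3K4me2 and PDX1 were called against 1 input and BMAL1, CLOCK and H2A.Z against the other, per the file headers; the description of the H2A.Z sample names the other input.

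The deposited Normalized Tag Count is a signal, namely the tags of an interval after scaling to a library of 10000000, per the file headers. The deposited tags and input tags per interval, also a signal, gave Poisson intervals and input density. The authors' score ranked peaks within a list, and the deposited fold over input is a ratio that served to keep intervals at 8 times the input. The deposited focus fraction and the deposited p-values were read only to check the files.

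Intervals overlapped when they shared 1 bp, and coordinates are as deposited. Shares carry Wilson intervals, their differences Newcombe intervals or, for factor peaks and H2A.Z, Mantel-Haenszel differences over 10 width classes with Sato variance. Gene spans and ends of 21887 protein-coding genes came from a RefSeq table of GRCm38.p6, and 32851 promoter windows from a second, which covers 17492 of these genes. The overlap search and the intervals were tested on simulated data. Members, the 8 gene lists and the comparisons were chosen with earlier results of these data known. Intervals are named by the protein-coding gene around the centre or the nearest gene end. Named were the 10 strongest and 10 widest, the 5 with the best peak of each target, up to 10 with 2 or more factors, the 10 genes with most such intervals, up to 6 genes per list by Normalized Tag Count, and 3 on either side of the threshold; some genes under this rule are not reported here. Alternatives were a gap of 1 kb, under 10% overlap, filters at 8 times the input, autosomes, joining, other classes and gene positions, upper scores and peak centres. The work was done in Python 3.11.15 with SciPy 1.17.1, pandas 2.3.3, NumPy 2.4.6 and matplotlib 3.10.9.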

Additional observations from a re-analysis of the deposited data

How the results depend on the processing

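Of 67 alternative values of the 6 differences, 57 kept their direction and their side of 0. Requiring 8 times the input of H3K4me2 gave 26823 intervals in place of 10571, with a median width of 1145 bp and a median Normalized Tag Count of 49.1, and turned the differences of BMAL1 (0.9201 points) and CLOCK (0.9189); those of H2A.Z (1.052), gene ends (0.8804) and gene spans (0.5392) had intervals that included 0; the cause was not tested. The same requirement for H3K27ac left 2842, with medians of 629 bp and 11.9 and a CLOCK difference of -0.4921 points, whose interval included 0. Joining intervals under 1 kb apart gave medians of 642 bp and 16.4. In classes of Normalized Tag Count the CLOCK difference was -0.3575 points, with an interval that included 0. The PDX1 difference was -12.82 points away from gene ends. Among intervals with a Normalized Tag Count of 200 or more, a limit chosen after seeing the data, the PDX1 difference was 6.219 points (2.371 to 10.07). More than 1 kb from gene ends and without width classes, it was -3.552 points (-8.974 to 2.008) between 200 and 400. There it was -0.4971 points (-8.75 to 7.496) at 400 or more. At 200 or more, the differences of BMAL1 (-0.5969) and CLOCK (-0.2606) had intervals that included 0. The cause was not tested. Other alternatives added after seeing the data kept their direction, the start sites of the promoter table (-26.0 points) and PDX1 in classes of Normalized Tag Count away from gene ends (-13.24 points). The H3K27ac library was about as deep as the shallowest, and weak intervals rest on few tags. No paired analysis was possible because there is 1 library per target.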
